A study of Mus musculus with 32 samples.

Results

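E0771 tumours, grown from a mouse mammary carcinoma line in C57BL/6 mice and titled day 6, were sequenced after treatment with an antibody or with IgG. Of the 32 libraries in the series, these are 8, taken by their titles and treatment labels. The antibody group held 4 libraries from tumours treated with an antibody that the labels name for the extracellular domain (ECD) of human DDR1. The IgG group held 4 libraries from tumours given IgG. The other libraries of the series are E0771 cells and tumours with or without a Ddr1 knockout, and of those only the day 4 tumours are used, for 1 comparison. Those are 5 knockout and 4 wild-type tumours, also in C57BL/6 hosts, transplanted from Rag1-/- mice, which lack mature T and B cells. The day 6 labels give neither the Ddr1 genotype of the tumour cells nor the animals behind the libraries, and the p-values therefore cover the variation among these 8 libraries, which may be technical. All 25277 genes of the day 6 table were examined, in libraries of 20220028 to 39732635 reads.

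DDR1 is a receptor tyrosine kinase of epithelial cells that is switched on by collagen rather than by a soluble growth factor, and its ectodomain can be cut from the cell surface. Mice without it have defects of the mammary gland. Interferons, described at length because, of the 38 gene lists examined, their type I response list held the highest share of members lower in every antibody library, act through receptors that activate STAT proteins. A complex that includes STAT2 and IRF9 then binds a DNA element, the interferon-stimulated response element, in the promoters of antiviral genes.

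Levels are normalized read counts, which are reads divided by a size factor for each library. Changes are differences of log2(normalized count + 1), antibody minus IgG, with the standard error (SE) from limma, and changes of genes with few reads are understated on this scale. Levels are given for libraries 1 to 4 of each group in that order.

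Ddr1 (GRCm38 chromosome 17, 35681567 to 35704621, minus strand) was at 852, 563, 633 and 580 in antibody tumours and at 504, 593, 658 and 459 in IgG tumours. The groups overlapped, antibody library 1 was the highest of the 8, and the change was 0.24 (SE 0.18, limma adjusted p = 0.584). As a share of all reads, Ddr1 took 28.5, 18.5, 22.2 and 19.3 RPM (reads scaled by the total) in antibody tumours and 16.8, 19.5, 22.1 and 15.9 RPM in IgG tumours. At day 4 its share was 27.9 to 49.7 RPM in knockout and 132 to 175 RPM in wild-type tumours, from a separately normalized table. All 8 day 6 libraries were thus below every day 4 wild-type library. All of them except antibody library 1 (28.5 RPM) were also below the lowest day 4 knockout library (27.9 RPM). The reads are of the mouse gene, and human DDR1 was not measured here.

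The libraries of the antibody group were less alike than those of the IgG group. Across genes, the correlation of log2 levels was 0.916 to 0.963 between antibody libraries, 0.953 to 0.983 between IgG libraries and 0.890 to 0.981 between libraries of the 2 groups. Component 1 of a principal component analysis held 43.4% of the variance and set antibody libraries 2 and 4 apart from the rest, at 64.0 and 90.2. Antibody libraries 1 and 3 were at -25.9 and 6.5, among or beside the IgG libraries, which lay between -61.2 and -17.2. Component 2, with 24.7%, was lowest in IgG library 2, at -68.6.

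**Figure D1:**
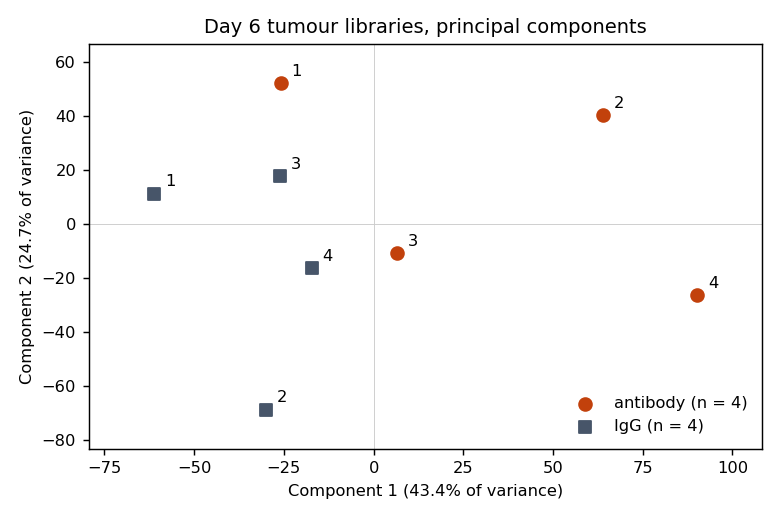
Principal components of log2(normalized count + 1) in the 8 day 6 libraries, with points numbered by library. Antibody libraries 2 and 4 lie far right on component 1 and IgG library 2 lies lowest on component 2.

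The libraries also differed in genes of tissues that can surround a mammary tumour. Skeletal muscle genes (28 of 28 tested) took 0.0248% to 0.0698% of reads in antibody tumours and 0.0543% to 1.18% in IgG tumours, with IgG library 2 the highest. Luminal epithelial genes averaged 4.32, 8.22, 5.43 and 9.14 (mean log2 level of 18 genes) in antibody tumours and 3.27, 4.40, 3.38 and 4.21 in IgG tumours. Adipocyte genes averaged 6.19, 10.17, 9.18 and 10.75 in antibody tumours and 6.85, 8.54, 5.83 and 7.28 in IgG tumours. The luminal and adipocyte genes were thus highest in antibody libraries 2 and 4, the libraries far out on component 1. The muscle genes were highest in IgG libraries 1 and 2. These values touch each result that follows, so values are also given without antibody libraries 2 and 4, a setting chosen after seeing the data, in the text for many lists and in the plot of list medians for all of them. In bulk tumours, fewer cells of a type and less RNA per cell cannot be told apart. Nor can tumour cells and surrounding tissue be told apart as the source of epithelial RNA.

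**Figure D2:**
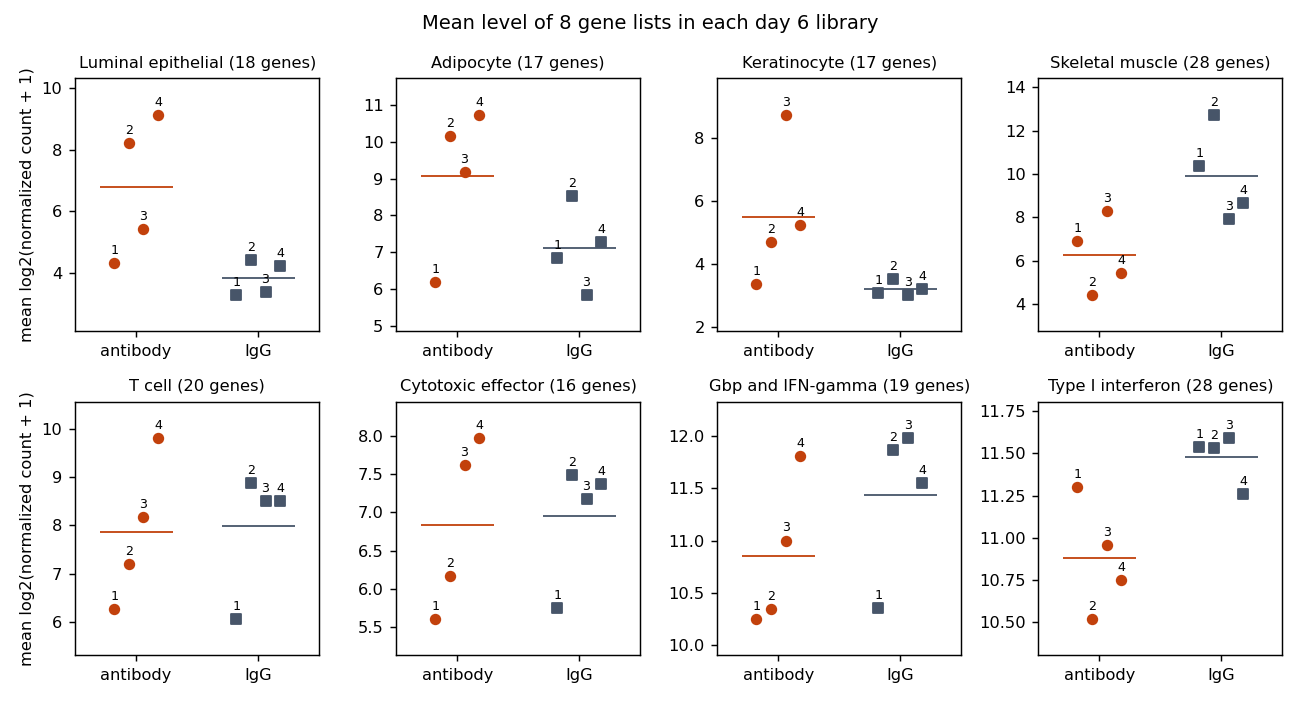
Mean log2(normalized count + 1) over the tested genes of 8 lists, by library (numbered points), with antibody libraries left and IgG libraries right, and a line at the group mean. Epithelial and adipocyte lists were highest in antibody libraries 2 and 4, keratinocyte genes in antibody library 3, muscle genes in IgG library 2, and the T cell list spanned 6.26 to 9.81 in antibody and 6.06 to 8.88 in IgG tumours.

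No gene passed the test for a difference between antibody and IgG tumours. With limma, 0 of 14155 genes had an adjusted p under 0.05, and the smallest adjusted p was 0.517. At an unadjusted p under 0.05 there were 1218 genes (8.6%), of which 591 (4.18%) were higher and 627 (4.43%) lower in antibody tumours. In 288 genes (2.03%) every antibody library was above every IgG library, and in 264 genes (1.87%) every antibody library was below. The edgeR quasi-likelihood test on whole reads also called 0 of 14179 genes, with 1396 (9.85%) at an unadjusted p under 0.05, while DESeq2 called 168, with 79 higher (0.557%) and 89 lower (0.628%). The median change over all genes was -0.01.

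Of the 168 genes past DESeq2, 64 had groups that did not overlap, which held for 2.03% (higher) and 1.87% (lower) of all genes. The luminal, adipocyte, keratinocyte and skeletal muscle lists held 31 of the 168. In that order, DESeq2 called 11 of 18, 5 of 17, 5 of 17 and 10 of 28 tested genes. Over all genes it called 0.557% as higher and 0.628% as lower. Without antibody libraries 2 and 4 DESeq2 called 18 genes, 9 in each direction. When antibody library 1 was left out, limma called 5 genes, all higher in antibody tumours. They included Clca3a2, Fam25c, Lep and Fcgbp, the last named because it was among these calls. Leaving out any other library gave 0 calls. Every gene named from here on therefore failed limma's correction over all genes unless it is said otherwise, and its values are given as a description.

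In all, 38 gene lists with 736 distinct genes were described, of which 679 genes were tested. None held a gene called by limma. The lists that stood furthest from the median of all genes were skeletal muscle, 2 interferon lists, and the luminal, keratinocyte and adipocyte lists.

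**Figure D3:**
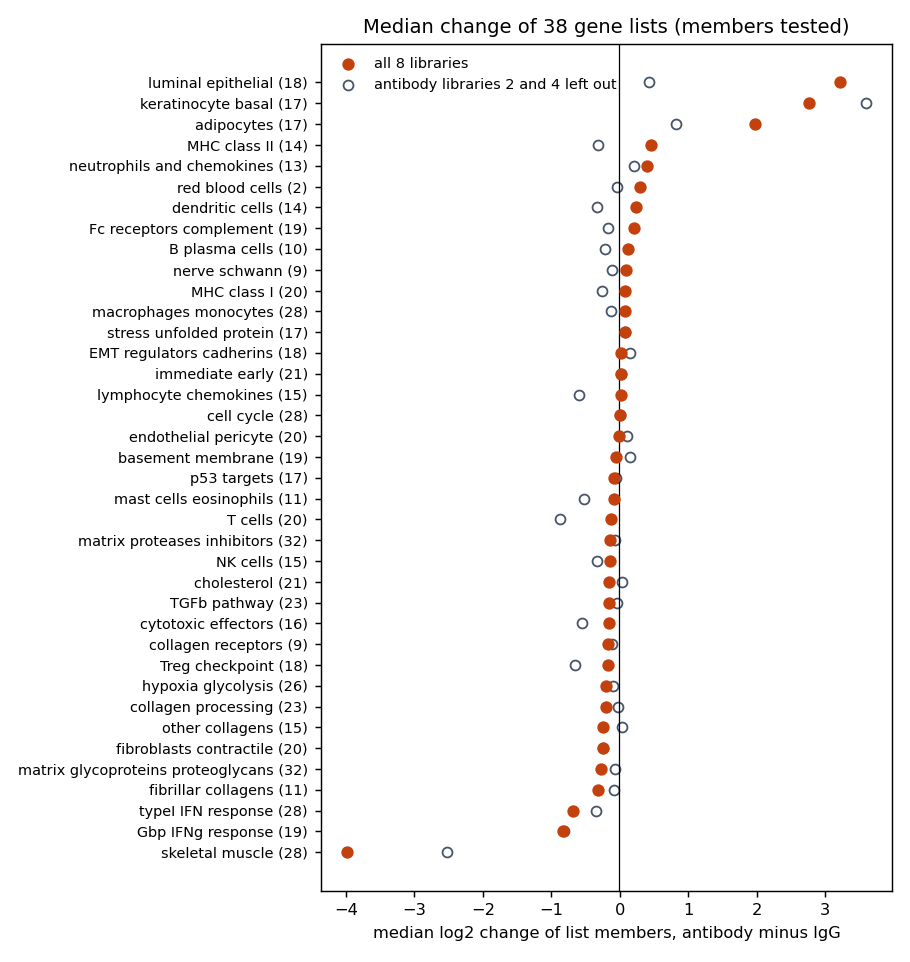
Median log2 change of each of 38 gene lists, antibody minus IgG, in all 8 libraries (filled) and without antibody libraries 2 and 4 (open), with the number of genes tested in parentheses and a line at the median of all genes. Skeletal muscle lies at -3.99, the interferon lists at -0.83 and -0.68, and the luminal list at 3.21, which moves to 0.43 without the pair of libraries.

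Promoters of the interferon genes are shown first. The lists hold known interferon response genes, so a response element frequent in them describes the lists and not an effect of the antibody. The motif searched was GAAANNGAAA, a common form of the interferon-stimulated response element, on both strands, so that its reverse complement TTTCNNTTTC also counts, and overlapping matches were allowed. The window ran from 250 bases before to 50 after each RefSeq start (GRCm38.p6). It was found for 13 of the 22 type I interferon genes with a promoter in the table (59.1%) and for 10 of the 11 Gbp and interferon-gamma genes (90.9%), against 1079 of all 27025 genes (3.99%). It was found for 1 of 7 genes with a promoter among the 12 lower genes of smallest p (14.3%). The promoters of 4 genes with no overlap between the groups follow, with matches in capitals, each read in the direction of transcription.
Gbp7, chr3:142530086-142530385, plus strand: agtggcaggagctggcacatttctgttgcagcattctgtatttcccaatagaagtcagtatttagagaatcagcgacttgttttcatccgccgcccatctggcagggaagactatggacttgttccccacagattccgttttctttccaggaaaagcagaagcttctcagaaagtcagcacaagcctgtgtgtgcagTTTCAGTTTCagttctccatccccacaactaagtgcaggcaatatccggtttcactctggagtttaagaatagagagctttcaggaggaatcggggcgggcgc
Trim30a, chr7:104465144-104465443, minus strand: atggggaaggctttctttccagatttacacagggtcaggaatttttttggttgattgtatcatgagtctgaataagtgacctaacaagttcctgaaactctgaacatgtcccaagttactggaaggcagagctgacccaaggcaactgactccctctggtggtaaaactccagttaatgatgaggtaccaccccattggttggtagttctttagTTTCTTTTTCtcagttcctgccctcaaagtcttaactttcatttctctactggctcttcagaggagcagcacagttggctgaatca
Ifih1, chr2:62646206-62646505, minus strand: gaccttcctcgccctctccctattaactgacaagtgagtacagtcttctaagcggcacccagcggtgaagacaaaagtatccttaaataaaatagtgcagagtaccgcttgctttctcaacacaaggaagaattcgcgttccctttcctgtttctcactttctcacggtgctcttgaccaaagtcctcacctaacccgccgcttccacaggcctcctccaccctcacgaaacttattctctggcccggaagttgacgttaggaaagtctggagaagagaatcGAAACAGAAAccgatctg
Ifit3, chr19:34583279-34583578, plus strand: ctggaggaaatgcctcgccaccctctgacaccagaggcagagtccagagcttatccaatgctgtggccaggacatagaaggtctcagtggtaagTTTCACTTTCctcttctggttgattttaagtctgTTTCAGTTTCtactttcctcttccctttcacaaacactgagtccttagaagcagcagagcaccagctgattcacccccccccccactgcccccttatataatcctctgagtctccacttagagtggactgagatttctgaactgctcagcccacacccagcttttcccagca
The match begins 53 bases before the start in Gbp7, 36 before it in Trim30a and 32 after it in Ifih1, and Ifit3 holds a pair of matches, the first 156 bases before its start. A match did not go with a lower level in every case. Bst2 and Ifitm3 hold the motif and had changes smaller than their SE, and Ifit2, lower in every antibody library, and Ifi44, of the lowest change in the list, have no match in their windows.

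Type I interferon response genes were lower in antibody tumours as a group, although no member passed limma. Of 28 genes tested, 26 had a change below 0, against 51.6% of all genes. In 10 of the 28 every antibody library was below every IgG library (1.87% of all genes), and 17 had an unadjusted p under 0.05 in the lower direction (4.43% of all genes). The share without overlap is the value by which this list was singled out among the lists. That share and the counts beside it are therefore a description. DESeq2 called 1 of the 28 lower, Rtp4 (0.628% of all genes). Rtp4 overlaps the coding gene Masp1 on the opposite strand. The median change was -0.68, and it ranged from -0.76 to -0.50 when any 1 library was left out. Averaged over the 28 genes, log2 levels were 11.30, 10.52, 10.96 and 10.75 in antibody tumours and 11.54, 11.53, 11.59 and 11.26 in IgG tumours. Antibody library 1 thus lay just above IgG library 4, and the others did not overlap.

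The size of the median depended on which libraries entered, and its direction was the same in each of these settings. Without antibody libraries 2 and 4 all 28 genes were below 0 (53.3% of all genes), the median was -0.35, and 10 of the 28 had an unadjusted p under 0.05 in the lower direction, against 1.12% of all genes. Without IgG libraries 1 and 2, which were highest in muscle genes, all 28 were again below 0 with a median of -0.58, and with limma's array weights the median was -0.41. On the mean log2 scale muscle genes were at 6.93, 4.42, 8.30 and 5.42 in antibody tumours and at 10.38, 12.74, 7.92 and 8.66 in IgG tumours. The part of muscle content in the interferon values was not tested.

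Among sensors of viral RNA, Ifih1 (which encodes MDA5) was at 2021, 1087, 1807 and 1430 in antibody tumours and at 3083, 2414, 2484 and 2310 in IgG tumours. All antibody libraries were below all IgG libraries, and the change was -0.73 (SE 0.20, limma adjusted p = 0.517). Ddx58 (RIG-I) was at 2956, 1480, 2490 and 1805 in antibody tumours against 3735, 3177, 3676 and 3234 in IgG tumours, a change of -0.71 (SE 0.21). Tlr3, an endosomal sensor of double-stranded RNA that is not in the list, was at 342, 239, 454 and 352 in antibody tumours against 728, 624, 553 and 586 in IgG tumours (-0.87, SE 0.20). Antibody library 2 was the lowest in all 3 genes. Dhx58 (LGP2), a regulator of the RNA sensors, overlapped between the groups, with a change of -0.34 (SE 0.19). Ifih1, Ddx58 and the other interferon genes beyond Rtp4, Trim30a, Gbp7 and Irgm2 were singled out after their values were seen, as were Krt18, Krt15 and Ifi44.

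Of the signalling genes, Stat2, which carries the signal from the type I receptor to the nucleus, was at 3549, 1849, 3747 and 3434 in antibody tumours and at 4350, 5518, 6803 and 4961 in IgG tumours, without overlap (-0.82, SE 0.24). Its partner Irf9 (-0.32, SE 0.15) and Irf7, a factor that amplifies interferon production (-0.28, SE 0.18), overlapped between the groups. Usp18, a negative regulator of the receptor, had a change of -0.72 with an SE of 0.38 and overlapped too.

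The antiviral effectors showed the same order of groups with different spreads. Rtp4, a chaperone of receptors with antiviral activity, was at 2196, 1579, 1862 and 2163 in antibody tumours and at 2742, 3325, 3127 and 2638 in IgG tumours (-0.61, SE 0.14, limma adjusted p = 0.517, DESeq2 adjusted p = 0.0224). Trim30a, a ubiquitin ligase family member that dampens inflammatory signalling in mice, was at 2104, 1395, 2283 and 2180 in antibody tumours against 2696, 3293, 3270 and 2950 in IgG tumours (-0.64, SE 0.17). Ifit2, of a family that binds viral RNA, was at 3630, 1993, 3501 and 1952 in antibody tumours against 6721, 5016, 4131 and 4415 in IgG tumours (-0.91, SE 0.25). None of these overlapped, nor did Ifit3 (-0.52), Mx1 (-0.76), Oas2 (-0.81) or Xaf1 (-0.54).

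Other effectors had large but scattered values. Rsad2, which encodes viperin, was at 6958, 3786, 5614 and 1629 in antibody tumours against 14378, 6489, 6797 and 5255 in IgG tumours, overlapping because antibody library 1 was above 3 IgG libraries and antibody library 3 above 1 (-0.95, SE 0.46). Ifi44 gave the lowest change of the list, -1.13 (SE 0.41), with overlap. Bst2 (tetherin) was at 0.06 (SE 0.22) and Ifitm3, which blocks virus entry at membranes, at 0.03 (SE 0.18), the 2 members above 0.

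**Figure D4:**
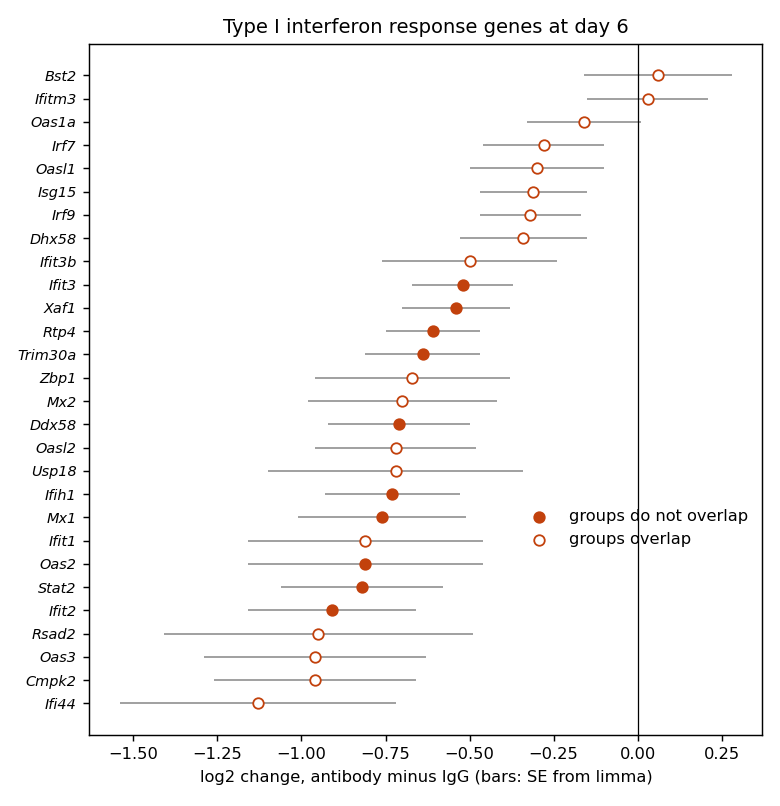
Log2 change, antibody minus IgG, of the 28 tested type I interferon response genes, with limma's SE as bars and filled points where the groups do not overlap. All but Bst2 (0.06) and Ifitm3 (0.03) lie below 0, and Ifi44 lies lowest at -1.13.

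Several of the lower genes of smallest p are known from the interferon field although they stood outside the list. Ifi204 and Ifi205, which belong to a family of DNA-sensing and interferon-induced nuclear proteins, changed by -0.63 (SE 0.14) and -1.11 (SE 0.24). Ifi205 was at 919, 419, 828 and 633 in antibody tumours and at 1275, 1674, 1519 and 1341 in IgG tumours. Herc6, the ligase for ISG15 in mice, was at 1883, 1120, 1776 and 1407 in antibody tumours against 2159, 2703, 2902 and 2609 in IgG tumours (-0.77, SE 0.18). Parp9, an ADP-ribosyltransferase family member that acts with the ligase Dtx3l, changed by -0.66 (SE 0.16). These 4 genes had no overlap between the groups and DESeq2 adjusted p-values of 0.0143, 0.0105, 0.0233 and 0.0313, while limma gave 0.517 for each. Parp9 overlaps the coding gene Dtx3l on the opposite strand, and Ifi204 and Ifi205 have close relatives, which leaves their read assignment uncertain, and the same holds for the Gbp, Ifit, Oas and Trim30 families.

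The Gbp and interferon-gamma list, with guanylate-binding proteins and immunity-related GTPases that attack vacuoles of intracellular microbes, was lower by its median but overlapped more. Of 19 genes tested, 17 were below 0 (51.6% of all genes) and 10 had an unadjusted p under 0.05 in the lower direction (4.43% of all genes). Only 1, Gbp7, had no overlap between groups (1.87% of all genes), and it was called by DESeq2 (0.628% of all genes). Gbp7 was at 3344, 1780, 4710 and 3220 in antibody tumours and at 5075, 7211, 9468 and 6774 in IgG tumours (-1.17, SE 0.29, limma adjusted p = 0.517, DESeq2 adjusted p = 0.0224). Irgm2 was at 3555, 1897, 3937 and 4722 in antibody tumours against 4169, 7525, 9823 and 6172 in IgG tumours (-0.98, SE 0.32), overlapping through IgG library 1. It overlaps the related gene Igtp on the same strand. The list's median was -0.83, and -0.82 without antibody libraries 2 and 4, when all 19 genes were below 0.

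This list moved with the T cell genes between libraries. Its mean log2 level was 10.25, 10.34, 11.00 and 11.81 in antibody tumours and 10.35, 11.87, 11.98 and 11.55 in IgG tumours. IgG library 1 was low in both lists and antibody library 4 was high in both. Ifng, the gene for interferon-gamma itself, was at 22.6, 48.1, 84.8 and 358 in antibody tumours and at 11.3, 158, 218 and 164 in IgG tumours, a change of -0.25 with an SE of 1.04. The part of T cell genes in the list's values was not tested.

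T cell genes did not separate the groups. Of 20 genes tested, 5 were above and 15 below 0, none was without overlap, and the median was -0.13. Cd3e, a subunit of the T cell receptor complex, was at 73.7, 171, 286 and 1191 in antibody tumours and at 38.2, 669, 590 and 421 in IgG tumours (-0.14, SE 1.03, limma adjusted p = 0.964). The libraries of each group differed by more than 10 times in this gene, with antibody library 4 the highest and IgG library 1 the lowest. Cd8a, of cytotoxic T cells, was at 155, 282, 515 and 2324 in antibody tumours and at 123, 1253, 1085 and 754 in IgG tumours (-0.32, SE 0.92). Without antibody libraries 2 and 4 the T cell median was -0.87 with 19 of 20 genes below 0, and it lay between -0.88 and 0.44 when 1 library was left out, with the sign turned in 5 of the 8 cases, to 0.44 without antibody library 1, 0.23 without IgG library 2, 0.09 without antibody library 2, 0.06 without IgG library 4 and 0.03 without IgG library 3.

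Cytotoxic and natural killer cell genes were as spread. Perforin (Prf1) was at 172, 128, 476 and 925 in antibody tumours against 152, 790, 834 and 634 in IgG tumours (-0.68, SE 0.71), and granzyme B (Gzmb) changed by -0.52 (SE 0.50). The cytotoxic list had 10 of 16 tested genes below 0 and a median of -0.16 (-0.56 without antibody libraries 2 and 4). The natural killer list had 9 of 15 below 0 and a median of -0.14, with Ncr1, a receptor of these cells, at -0.37 (SE 0.62). In the list of regulatory T cell and checkpoint genes 13 of 18 were below 0 and the median was -0.18 (-0.66 without antibody libraries 2 and 4). Foxp3, the factor of regulatory T cells, changed by 0.32 (SE 0.83) and Pdcd1, which encodes PD-1, by -0.36 (SE 0.95). Cd274, the gene for its ligand PD-L1, was at 1531, 1025, 2779 and 3032 in antibody tumours against 1935, 4270, 4123 and 3799 in IgG tumours (-0.82, SE 0.38, limma adjusted p = 0.517). Without antibody library 1 the medians were 0.32 for the cytotoxic list, 0.25 for the natural killer list and 0.29 for the checkpoint list. These signs also turned, to 0.10 at most, when some other single libraries were left out.

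Chemokine and myeloid genes had overlapping groups in nearly all members. Cxcl9, which attracts T cells, was at 2547, 6840, 12461 and 33999 in antibody tumours against 5104, 17074, 10732 and 16048 in IgG tumours (-0.26, SE 0.71). Lymphocyte chemokines had a median of 0.01 over 15 genes, macrophage and monocyte genes 0.08 over 28 (-0.13 without antibody libraries 2 and 4), dendritic cell genes 0.23 over 14 and mast cell and eosinophil genes -0.08 over 11. Genes of neutrophils and their chemokines had a median of 0.39 over 13, with 10 above 0. B and plasma cell genes had a median of 0.12 over 10 tested genes. Without antibody library 4 the medians were -0.66 for lymphocyte chemokines, -0.17 for dendritic cell genes and -0.12 for B and plasma cell genes, and without antibody library 1 that of mast cell and eosinophil genes was 0.41. Adgre1 (F4/80), a macrophage marker, was at 3236, 3698, 7514 and 14496 in antibody tumours against 4866, 8115, 4207 and 8033 in IgG tumours (-0.01, SE 0.45). Receptors for the constant part of an antibody held no called gene. In the list of Fc receptors and complement 11 of 19 were above 0 and the median was 0.21. That direction did not hold without antibody library 4 (-0.09), without IgG library 1 (-0.02) or without antibody libraries 2 and 4 (-0.18). Fcgr3, an activating receptor of macrophages, changed by 0.30 (SE 0.38).

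Antigen presentation genes lay on both sides of 0, depending on the libraries. MHC class II genes, of professional antigen-presenting cells, had 13 of 14 above 0 and a median of 0.45, which was -0.32 without antibody libraries 2 and 4. H2-Ab1, a class II chain, changed by 0.74 (SE 0.81) with overlap. MHC class I genes had a median of 0.08 over 20, which was -0.21 without IgG library 1 and -0.16 without antibody library 4. In that list Erap1, which trims peptides for class I, was lower in every antibody library, at 3628, 2826, 4417 and 3793 against 4624, 4874, 5660 and 4892 in IgG tumours (-0.47, SE 0.15).

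Of the 12 genes of smallest p in the higher direction, Krt19, Krt14 and Cldn3 belonged to the epithelial or keratinocyte lists. Clca3a2 (chromosome 3, 144796559 to 144819494), of a family named for calcium-activated chloride channels, was at 6.77, 324, 197 and 198 in antibody tumours and at 1.03, 1.99, 0 and 1.98 in IgG tumours. The groups did not overlap, antibody library 1 was close to the IgG range, and the change was 5.6 (SE 1.10, limma adjusted p = 0.517, DESeq2 adjusted p = 7.67e-07). Fam25c had the same layout, at 3.01, 193, 172 and 263 in antibody tumours against 1.03, 0, 0 and 2.97 in IgG tumours. Fgfr2, a growth factor receptor whose epithelial form serves the mammary gland, was at 59.4, 228, 43.6 and 573 in antibody tumours against 10.3, 8.96, 7.36 and 10.9 in IgG tumours (3.74, SE 0.74). Its annotated span overlaps other coding genes on the same strand.

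Keratins and junction genes followed. Krt19, a luminal keratin, was at 141, 1916, 118 and 3734 in antibody tumours against 11.3, 56.7, 4.41 and 27.7 in IgG tumours (5.02, SE 1.2). Cldn3, a tight junction protein, was at 33.1, 184, 12.3 and 348 in antibody tumours against 3.09, 4.98, 0 and 0.99 in IgG tumours (4.80, SE 1.05). Both were highest in antibody libraries 2 and 4, and both were still above every IgG library in antibody libraries 1 and 3. Haptoglobin (Hp), a secreted hemoglobin-binding protein also made by fat, was at 278, 3359, 410 and 2997 in antibody tumours against 105, 134, 44.1 and 115 in IgG tumours (3.48, SE 0.82). Sncg, gamma-synuclein, known from neurons and adipocytes, was at 424, 283, 201 and 704 in antibody tumours against 108, 101, 75.0 and 116 in IgG tumours (1.86, SE 0.36, DESeq2 adjusted p = 0.000524). Ptprf, a receptor phosphatase, was also higher in every antibody library (2.06, SE 0.53), and Cxadr, a junction protein that serves as a virus receptor, overlapped (4.63, SE 1.18).

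Across the luminal epithelial list 18 of 18 tested genes were above 0 (48.4% of all genes). No overlap was seen in 3, Krt18, Krt19 and Cldn3 (2.03% of all genes), and DESeq2 called 11 (0.557% of all genes). The median was 3.21, and 0.43 over the 12 genes still tested without antibody libraries 2 and 4, of which 8 were above 0. The other members passed the filter on low values only through antibody libraries 2 and 4. The counts and median of the full list are therefore a description. The milk protein genes Csn2 and Wap had no read in any library. Krt8, a simple-epithelium keratin abundant in every library, was at 7333, 9792, 4761 and 7084 in antibody tumours against 6081, 5379, 5524 and 5588 in IgG tumours (0.32, SE 0.19). Its partner Krt18 was at 53.4, 1222, 65.0 and 2799 in antibody tumours against 3.09, 35.8, 8.83 and 15.8 in IgG tumours. Epithelial splicing regulator Esrp2 was higher in every antibody library (1.56, SE 0.52), and the list of mesenchymal transition regulators and cadherins had 9 of 18 on each side of 0 with a median of 0.02.

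Adipocyte genes had 15 of 17 above 0 (48.4% of all genes), no gene without overlap and 5 DESeq2 calls (0.557% of all genes). Their median was 1.97 (0.82 without antibody libraries 2 and 4). Fabp4, a fatty acid carrier of fat cells, was at 1208, 7559, 1884 and 7304 in antibody tumours against 611, 1232, 753 and 929 in IgG tumours (1.97, SE 0.58). Lep, which encodes the hormone leptin, was at 0.752, 49.1, 91.3 and 151 in antibody tumours against 0, 1.99, 0 and 0.99 in IgG tumours. By mean log2 level adipocyte genes were above every IgG library in antibody libraries 2, 3 and 4 and not in library 1. By share of reads IgG library 2 (0.164%) was above antibody library 3 (0.117%). It was below antibody libraries 2 (0.174%) and 4 (0.229%).

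Keratinocyte and basal genes followed another library. Krt14, a keratin of basal cells, was at 18.1, 123, 838 and 54.0 in antibody tumours against 8.25, 7.96, 0 and 2.97 in IgG tumours (4.58, SE 1.15). Dsp, a desmosome protein, was at 15.8, 42.2, 341 and 136 in antibody tumours against 14.4, 3.98, 4.41 and 12.9 in IgG tumours (3.13, SE 0.89). Antibody library 3 was the highest in both. Of 17 genes tested, 15 were above 0 (48.4% of all genes), DESeq2 called 5 (0.557% of all genes), and the median was 2.76. Without antibody library 3 it was 1.17, over the 11 genes that still passed the filter on low values. Members such as Krt15 passed only through antibody libraries, so this count and median are a description. As a share of all reads the list took 0.064%, 0.0345%, 0.0751% and 0.0236% in antibody tumours. In IgG tumours it took 0.0547%, 0.0427%, 0.0674% and 0.0532%. By this measure the groups overlapped, and antibody libraries 2 and 4 were below every IgG library. Krt15, the other gene without overlap beside Krt14 and Dsp, was at 0.752, 1.96, 281 and 11.0 in antibody tumours and at 0 in all 4 IgG libraries.

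Skeletal muscle genes were lower in antibody tumours in all 28 members, with a median of -3.99. At an unadjusted p under 0.05 there were 21 (4.43% of all genes), DESeq2 called 10 (0.628% of all genes), and 2 had no overlap (1.87% of all genes). Myh4, a myosin heavy chain of fast fibres, was at 288, 8.84, 372 and 51.8 in antibody tumours against 4444, 32937, 486 and 1184 in IgG tumours (-5.13, SE 1.45, DESeq2 adjusted p = 0.0143). Myl1, a myosin light chain, was at 102, 3.93, 269 and 28.7 in antibody tumours against 1077, 8970, 337 and 601 in IgG tumours (-4.72, SE 1.31). Antibody library 3 and IgG library 3 were within 1.5 times of each other in both genes. The median was -2.53 without antibody libraries 2 and 4 and -2.41 without IgG libraries 1 and 2. Red blood cell genes gave no view of blood, since Hba-a1, Hba-a2, Hbb-bs and Hbb-bt had no read in any library and the 2 genes tested had a median of 0.29 (-0.26 without IgG library 3). Nerve and Schwann cell genes had a median of 0.09 over 9 (-0.12 without antibody libraries 2 and 4), and endothelial and pericyte genes -0.01 over 20, where Cspg4 (NG2), a pericyte marker, was higher in every antibody library (1.02, SE 0.28).

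Some genes without overlap belonged to the matrix and its cells. Dpt, which encodes dermatopontin, a small matrix protein that binds decorin and collagen fibrils, was at 6308, 3968, 4662 and 5667 in antibody tumours and at 2518, 3215, 3114 and 2957 in IgG tumours. Its change was 0.79 (SE 0.16, limma adjusted p = 0.517, DESeq2 adjusted p = 0.00322), and 0.88 without antibody libraries 2 and 4. Lox, the lysyl oxidase that cross-links collagen, was at 688, 395, 559 and 339 in antibody tumours against 827, 1000, 705 and 952 in IgG tumours (-0.86, SE 0.23). Lrrc15, a membrane protein of TGF-beta-stimulated fibroblasts and mesenchymal tumours, was at 686, 628, 1146 and 699 in antibody tumours against 1843, 1158, 1616 and 1582 in IgG tumours (-0.99, SE 0.22, DESeq2 adjusted p = 0.0154). Asporin (Aspn), a small leucine-rich proteoglycan, changed by -2.06 (SE 0.63) with overlap.

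The collagens themselves did not separate the groups. Fibrillar collagen genes had 10 of 11 below 0 and a median of -0.32, which was -0.09 without antibody libraries 2 and 4. Col1a1 was at 28000, 23053, 38614 and 24669 in antibody tumours against 29395, 34300, 29650 and 40602 in IgG tumours (-0.25, SE 0.19, limma adjusted p = 0.589). Col3a1 changed by -0.33 (SE 0.23) and Col6a1, a collagen of beaded filaments, by -0.35 (SE 0.24). Both were low in antibody libraries 2 and 4, at 35474 and 31950 for Col3a1 against 49285 to 63091 in IgG tumours. Other collagens had a median of -0.25 over 15, collagen processing enzymes -0.20 over 23, basement membrane genes -0.06 over 19, matrix glycoproteins and proteoglycans -0.27 over 32, and proteases and their inhibitors -0.14 over 32. Without antibody libraries 2 and 4 these medians were 0.03 for other collagens, -0.03 for collagen processing, 0.15 for basement membrane genes, -0.07 for glycoproteins and proteoglycans and -0.07 for proteases and inhibitors. Collagen receptors, a list of integrins and others that includes Ddr1 (above 0) and Ddr2, had 7 of 9 below 0 and a median of -0.17. Ddr2, the receptor most related to Ddr1, changed by -0.54 (SE 0.25). Fibroblast and contractile genes had a median of -0.25 over 20, with Acta2, the smooth muscle actin, at -0.25 (SE 0.20).

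Growth factor genes of the TGF-beta family included the gene of smallest p among the named ones. Bmp7 (chromosome 2, 172868012 to 172940321), a bone morphogenetic protein, was at 748, 743, 810 and 511 in antibody tumours and at 1396, 1389, 1332 and 1251 in IgG tumours. The IgG libraries were within a narrow range, all antibody libraries were below it, and the change was -0.95 (SE 0.16, unadjusted p = 0.00016, limma adjusted p = 0.517, DESeq2 adjusted p = 8.15e-05). Without antibody libraries 2 and 4 it was -0.78. Inhba, which encodes the activin A subunit, was lower in every antibody library, at 40.6, 55, 95.5 and 48.5 against 107, 120, 146 and 103 in IgG tumours (-1.04, SE 0.30). In the TGF-beta list as a whole 20 of 23 genes were below 0 and the median was -0.16, which was -0.04 without antibody libraries 2 and 4.

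Of the remaining lower genes, Map7, a microtubule-binding protein, was at 46.7, 52.0, 97.9 and 72.7 in antibody tumours against 226, 183, 163 and 166 in IgG tumours (-1.49, SE 0.28, DESeq2 adjusted p = 0.00284). Angptl1, a secreted angiopoietin-like protein, was at 1.5, 1.96, 8.23 and 0 in antibody tumours against 78.4, 378, 23.5 and 27.7 in IgG tumours (-4.56, SE 0.97), and it was highest in IgG library 2, as the muscle genes were. Gpr149, an orphan receptor, changed by -1.67 (SE 0.39), and Nampt, an enzyme of NAD synthesis, by -0.53 (SE 0.13), both without overlap.

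Lists of cell state had medians within 0.20 of 0. Cell cycle genes had 14 of 28 on each side of 0 and a median of 0.00, with the proliferation marker Mki67 at -0.45 (SE 0.23). Hypoxia and glycolysis genes had 23 of 26 below 0 (51.6% of all genes) and a median of -0.20. This median was -0.09 without IgG library 3, with 17 of the 26 genes below 0, and -0.10 without antibody libraries 2 and 4. Without overlap were 2 (1.87% of all genes), Adm, a hypoxia-induced vasodilator peptide (-0.87, SE 0.31), and Ero1l, an oxidase of the endoplasmic reticulum (-0.63, SE 0.23). Cholesterol genes had 17 of 21 below 0 and a median of -0.16 (0.03 without antibody libraries 2 and 4), unfolded protein response genes a median of 0.07 over 17, and p53 target genes one of -0.08 over 17. Bbc3, which encodes the p53-induced death protein PUMA, was at 1073, 1162, 990 and 976 in antibody tumours against 552, 736, 742 and 737 in IgG tumours (0.61, SE 0.14, DESeq2 adjusted p = 0.0168). Immediate early genes had a median of 0.02 over 21, and of these Ier2 (0.75, SE 0.21) and Jund (0.87, SE 0.29), which encodes a subunit of AP-1, were higher in every antibody library.

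The antibody contrast was then set beside the loss of Ddr1 at day 4, which shares no library with it. Across 13686 genes, which are not independent replicates, the changes had a Pearson r of 0.43 and a Spearman rho of 0.26. The luminal median was 3.21 with antibody and 2.79 with knockout, the keratinocyte median 2.76 and 2.11, and the adipocyte median 1.97 and 3.34. Knockout medians cover only the members that passed the filter at both days. Some luminal and keratinocyte members passed it at day 6 only through antibody libraries, so these medians are a description. The luminal median with antibody was 0.43 without antibody libraries 2 and 4. The luminal, keratinocyte and adipocyte lists thus lay on the same side in both contrasts. The interferon lists did not, at -0.68 with antibody and 0.34 with knockout for type I genes and at -0.83 and 0.63 for the Gbp list, and the muscle median was -3.99 with antibody and -0.24 with knockout.

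A test of the difference, antibody effect minus knockout effect, called 3 of 13686 genes, 2 higher (0.0146%) and 1 lower (0.00731%). Ddr1 differed by 2.47 (limma adjusted p = 0.00112), with a change of 0.24 with antibody and -2.23 with knockout. It is the gene knocked out at day 4, so its fall on that side was set by the design. Ppp1r15a (GADD34), a stress-induced phosphatase subunit, was at 2236, 2737, 2412 and 2474 in antibody tumours and at 2193, 1865, 2073 and 1936 in IgG tumours. It changed by 0.29 with antibody and -1.02 with knockout, a difference of 1.31 (limma adjusted p = 0.0156). Syt16, a synaptotagmin, was at 206, 253, 183 and 123 in antibody tumours against 187, 162, 238 and 194 in IgG tumours, and its change of -0.06 differed from 3.43 with knockout by -3.50 (limma adjusted p = 0.002). In each of these 3 genes the knockout change was larger in size than the antibody change. No gene of the interferon lists passed this test. Bmp7 differed by -0.97 (limma adjusted p = 0.387) and Map7 by -2.11 (limma adjusted p = 0.22).

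**Figure D5:**
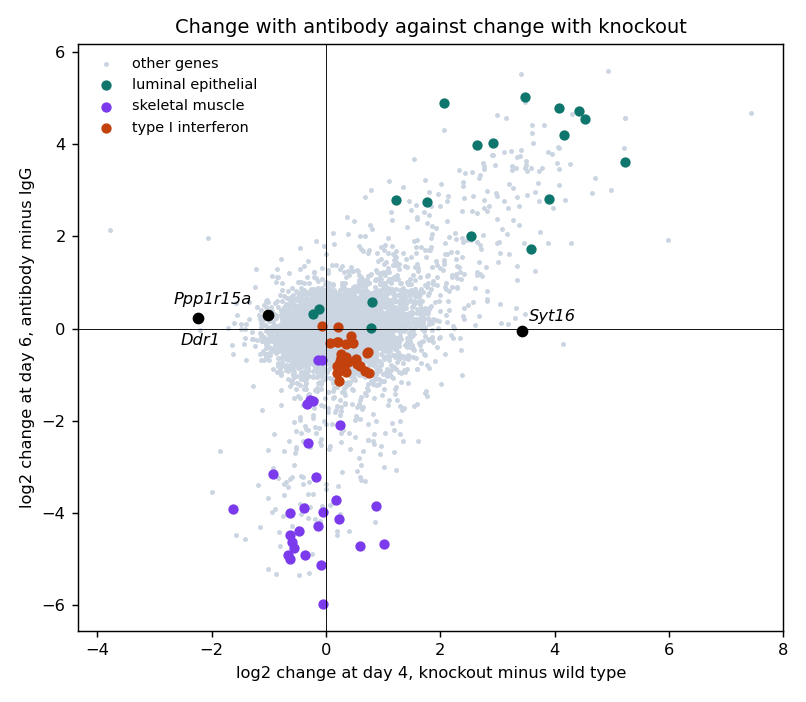
Log2 change at day 6 (antibody minus IgG, vertical) against log2 change at day 4 (knockout minus wild type, horizontal), with 1 point for each gene tested. Most luminal genes lie high on both axes, skeletal muscle genes lie low on the vertical axis alone, type I interferon genes other than Bst2 and Ifitm3 lie below 0 on the vertical axis, and Ddr1, Ppp1r15a and Syt16 are marked in black.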

How the data were processed

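The authors deposited normalized read counts per gene (signal values, reads divided by a size factor); the submitters' processing notes name CASAVA, TopHat and DESeq2 and the build mm10, without versions. The deposited values were whole multiples of a step in each library, and dividing by it gave whole reads (tolerance 0.01). Per the labels' protocols, Trizol RNA went into Illumina TruSeq stranded mRNA libraries. How reads were assigned to genes, and with which annotation and strand setting, is not given in the sources used here. The authors' own fold changes and p-values were not used.

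Libraries were grouped by treatment label. limma 3.58.1 (R 4.3.3), with its trend option, compared log2 levels (pseudocount 1) of genes averaging at least 10, two-sided, with calls at a Benjamini-Hochberg adjusted p under 0.05. The difference from the knockout used 1 model over both tables. Alternatives changed the pseudocount (0.5, 5), filter (none, 50), scaling (upper quartile, TMM, quantile), trend, weights or tool (edgeR 4.0.16 and DESeq2 1.42.0, on whole reads), added a replicate block or left out each library. The tests were first run on simulated counts. Positions (GENCODE M21), motifs and figures used Python 3.11.15, pandas 2.3.3 and matplotlib 3.10.9. Of 113 named genes, 18 overlap another coding gene, 4 of them on the same strand.

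Lists, naming rule and tests were chosen with earlier results of these data known. Named were Ddr1, the 12 genes of smallest p each way with a mean of 50 or more, a panel of 25, the 2 members of smallest p per list and genes past the difference test. Others are said to be chosen after their values were seen. Genes the rule picked that are not described singly enter the list values alone, and 1 is not reported here.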

Additional observations from a re-analysis of the deposited data

Results flagged for a closer look

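The highest or lowest library of a group stood apart from its other 3 libraries in 17 of 302 groups of values checked. Chance alone gives about 1 in 20 groups, which is close to this share, so each value is only a description. IgG library 1 was the one apart most often. It was low in the T cell gene Cd3e (38.2), in Prf1 (152), Ifng (11.3), Cd274 (1935) and Klri2 (26.8), and in the mean log2 level of the T cell list (6.06). It was also low in Bbc3 (552), Ier2 (864) and the collagen processing list (10.94). Antibody library 2 was low in the interferon genes Parp9 (1913) and Trim30a (1395) and in the list of mesenchymal transition regulators and cadherins (8.21), and high in Atf4 (22377), a factor of the stress response. Antibody library 1 was low in Clca3a2 (6.77) and Fam25c (3.01), and antibody library 4 was low in Adm (1416). IgG library 4 was the only IgG library with reads of the splicing regulator Esrp1 (1.98).

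The antibody change and the day 4 knockout change differed by limma's test in Ddr1 (2.47), the gene knocked out at day 4, and in Ppp1r15a (1.31) and Syt16 (-3.50).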

How the results depend on the processing

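limma called 0 genes under every alternative except without antibody library 1, with a range of 0 to 5 when 1 library was left out. DESeq2 called 168, and 18 without antibody libraries 2 and 4. For the difference from the knockout, array weights gave 5 genes, the replicate block 1, and leaving out 1 library 2 to 4. The replicate block called 0 genes for antibody against IgG. Same-numbered libraries correlated at 0.446, -0.198, -0.195 and 0.346, and differently numbered ones at -0.541 to 0.324. Whether the numbers pair the libraries is not settled by these values. These genes, none of them called for antibody against IgG, changed sign, and the cause was not tested. Adgre1 was 0.03 with upper-quartile scaling, 0.21 with edgeR, 0.20 with DESeq2 and 0.05 without IgG libraries 1 and 2. edgeR and DESeq2 each gave 0.01 for Cd3e, 0.03 for Cd8a, 0.20 for Cxcl9 and 0.07 for Pdcd1. Alas2 was -0.07 with quantile scaling, -1.15 with edgeR and -1.16 with DESeq2. Array weights gave -0.52 for Foxp3, 0.09 for Acta2, -0.13 for H2-Ab1 and -0.19 for Slc4a1. Without IgG libraries 1 and 2 Acta2 was 0.01.

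Without antibody libraries 2 and 4 limma gave -0.18 for Foxp3, -0.18 for Fcgr3, 0.08 for Col3a1, 0.07 for Col6a1, -0.30 for H2-Ab1, -0.10 for Clec10a, -0.11 for Ltf, -0.16 for Slc4a1 and 0.00 for Syt16. DESeq2 gave there -0.30 for Foxp3, 0.05 for Ncr1, -0.09 for Fcgr3, 0.00 for Col1a1, 0.08 for Col3a1, 0.06 for Col6a1, -0.20 for H2-Ab1, -0.39 for Ltf, -0.33 for Slc4a1, -0.99 for Alas2 and 0.01 for Syt16. With 1 library left out, Foxp3 ranged from -0.30 to 0.81, Fn1 from -0.47 to 0.31, Cd3e from -1.10 to 0.45, Cd8a from -1.08 to 0.22, Ifng from -1.21 to 0.32, Pdcd1 from -1.14 to 0.28, Adgre1 from -0.43 to 0.29, Alas2 from -0.54 to 1.69, Syt16 from -0.21 to 0.13, Cxcl9 from -0.88 to 0.37, Ncr1 from -0.76 to 0.10 and Fcgr3 from -0.04 to 0.65.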
